A study of Arabidopsis thaliana with 48 samples.

Results

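The JASMONATE ZIM-DOMAIN (JAZ) genes encode the repressor proteins that hold jasmonate responses off until the hormone is present. The 10 genes described here, JAZ1, JAZ2, JAZ3, JAZ5, JAZ6, JAZ7, JAZ8, JAZ9, JAZ10 and JAZ12, were taken by their locus identifiers and make up 10 of the 32824 distinct identifiers in the deposited tables. All 10 were present. RNA sequencing gave the transcript levels of Arabidopsis thaliana seedlings, taken whole at 6 days, under single and combined abiotic stress. The levels are FPKM, which divides the fragments of a gene by its transcript length and by the library's mapped total and so makes levels of different genes comparable per length. Counts and depth behind the values are unknown.

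Jasmonate is a lipid-derived hormone of wounding, defence and stress. JAZ proteins bind MYC2 and related transcription factors and recruit co-repressors through the adaptor NINJA. The active hormone, jasmonoyl-isoleucine, joins JAZ proteins to the F-box receptor COI1, which leads to their destruction and frees the transcription factors. Most JAZ genes are themselves targets of MYC2, so their transcripts are a common readout of the pathway in seedlings and leaves, while new JAZ protein closes the loop again.

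Seedlings were wild type of ecotype Col0 (WT) or carried the T-DNA insertion rap2.3_1 in RAP2.3, a gene for an ethylene response factor. Both were grown on plates with or without 50 mM NaCl (S). Controls (CT) were kept at 21 °C, with light of 50 µmol m-2 s-1. Excess light (EL) was 700 µmol m-2 s-1 and heat stress (HS) was 33 °C, each for 1.5 h, and all combinations were made (EL+HS, S+EL, S+HS, S+EL+HS). Each of the 16 groups had 3 libraries, which the labels call biological repeats, from many seedlings pooled. Salt thus acted throughout growth and light and heat only at its end.

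RAP2.3 (AT3G16770) was examined first. WT had 34.9 to 86.1 FPKM over 24 libraries, while the 24 labelled rap2.3 had 206 to 602 FPKM. That is the opposite of a loss of transcript, and whether the transcript is intact cannot be read from FPKM. These libraries are therefore called the libraries labelled rap2.3. They come from 1 insertion line, and their values stand in a table of their own, so genotype and table cannot be told apart.

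The FPKM of a library added up to 765860 at the lowest and 822875 at the highest, and replicates of a group correlated across genes with Pearson's r between 0.9691 and 0.9895. In 3 WT libraries, CT replicate 1, HS replicate 1 and S replicate 1, all 10 JAZ genes stood above the other libraries of the group, which no other library showed. Calls that were lost or gained when these 3 libraries were left out are given beside the results. Since they were picked for high JAZ levels, leaving them out lowers the CT, HS and S means of every member. Light values, and changes from CT under treatments other than HS and S, then rise by construction. Calls gained in that way are no support for a rise. All 5 shoot markers and all 7 root markers were above 0 in every library, as whole seedlings should have them. Root markers were higher with salt. Without the abundant PYK10, the other 6 summed to between 32.9 and 134 FPKM in WT libraries without salt and to between 112 and 228 FPKM with salt. With the rap2.3 label the ranges were 25.1 to 59.0 and 106 to 179 FPKM. In bulk seedlings, fewer cells of a type and less RNA per cell cannot be told apart.

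Stretches of sequence before the genes are shown because MYC2 binds the G-box, CACGTG, and because most members share it. Sequence and positions are from the RefSeq annotation of TAIR10.1, counted from the annotated start of each gene. The G-box in 8 members is set in capitals in the following lines, with the match nearest to the gene start where there is more than 1.
JAZ1: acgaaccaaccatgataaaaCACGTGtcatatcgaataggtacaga
JAZ2: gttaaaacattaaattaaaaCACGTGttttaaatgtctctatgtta
JAZ3: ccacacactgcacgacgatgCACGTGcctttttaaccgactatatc
JAZ5: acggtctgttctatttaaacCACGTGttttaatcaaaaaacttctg
JAZ6: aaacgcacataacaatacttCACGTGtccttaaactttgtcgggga
JAZ7: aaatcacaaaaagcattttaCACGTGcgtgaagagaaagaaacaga
JAZ8: gtgtggaaaaaaacattttcCACGTGagag
JAZ9: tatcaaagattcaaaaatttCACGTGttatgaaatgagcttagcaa

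The stretches lie at chr1:6620913-6620958 (plus strand) for JAZ1, chr1:28150487-28150532 (minus) for JAZ2, chr3:6119605-6119650 (plus) for JAZ3 and chr1:5958075-5958120 (minus) for JAZ5. Those of JAZ6, JAZ7, JAZ8 and JAZ9 lie at chr1:27277015-27277060 (minus), chr2:14572976-14573021 (plus), chr1:10596322-10596351 (plus) and chr1:26654143-26654188 (plus). The first base of the G-box was 844 bases before the start of JAZ1 but only 34 bases before JAZ7 and 10 bases before JAZ8. Within 1000 bases, searched on both strands, 8 of 10 members held CACGTG, against 14.8% of 27443 protein-coding genes. Within 250 bases the members were JAZ2, JAZ3, JAZ7 and JAZ8, against 6.5% of the same genes. JAZ10 and JAZ12 held none within 1000 bases.

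The shorter core ACGTG of abscisic acid response elements, which every G-box also contains, lay within 250 bases of 9 of 10 members, all but JAZ10, against 22.9% of genes. JAZ5 and JAZ10, 2 of 10 members, held the heat shock element core GAANNTTC within 1000 bases, against 33.2% of genes. Averaged over its backgrounds, heat gave JAZ5 log2 values of -0.32 in WT and -0.23 with the rap2.3 label. Neither had an adjusted p under 0.05 from limma. JAZ10 was higher with heat, so the core is set in capitals here. A link between the match and heat was not tested.
JAZ5: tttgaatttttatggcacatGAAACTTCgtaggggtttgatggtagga
JAZ10: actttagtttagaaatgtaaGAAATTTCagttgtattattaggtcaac

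These lie at chr1:5958009-5958056 (minus) and chr5:4218299-4218346 (plus), 525 and 467 bases before the gene starts. The dehydration response element core CCGAC lay within 1000 bases of JAZ3, JAZ5, JAZ6, JAZ9 and JAZ10, 5 of 10 members, against 37.4% of genes. A match is a string of letters and does not show that a factor binds there.

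**Figure D1:**
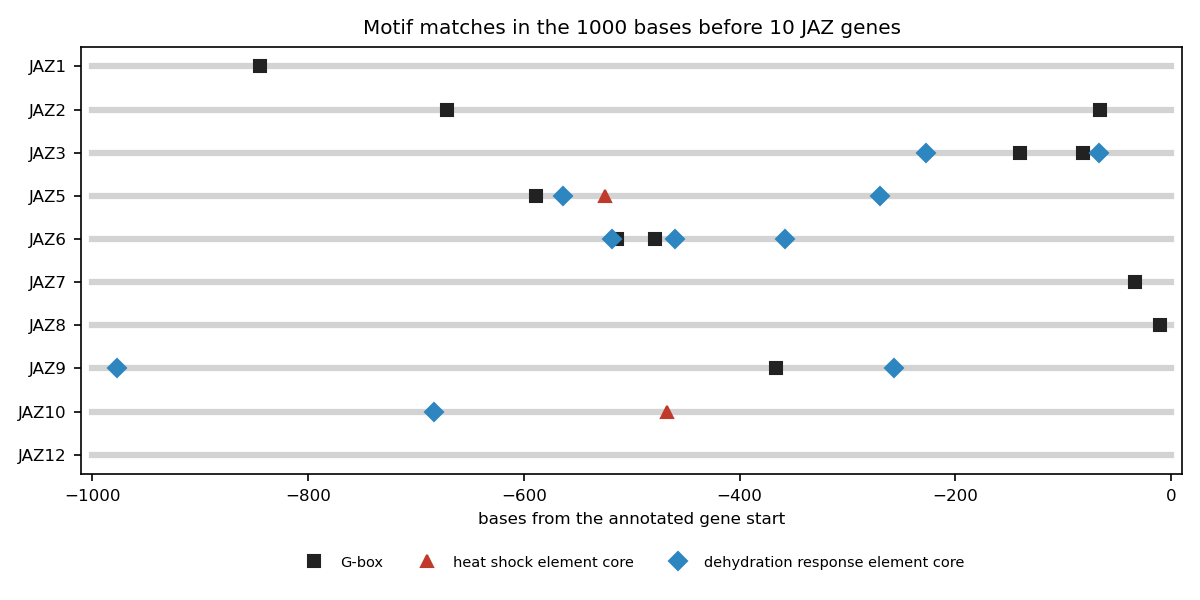
Motif matches on either strand in the 1000 bases before the annotated start of each JAZ gene. The horizontal axis is the distance in bases from the start. Squares (G-box) occur in 8 rows, triangles (heat shock element core) in the rows of JAZ5 and JAZ10, and the row of JAZ12 is empty.

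The genes lie on chromosomes 1, 2, 3 and 5. JAZ1 (AT1G19180) occupies chr1:6621777-6623668 (plus), JAZ5 (AT1G17380) chr1:5955155-5957511 (minus), JAZ9 (AT1G70700) chr1:26654529-26657350 (plus) and JAZ10 (AT5G13220) chr5:4218786-4221077 (plus). JAZ10 has the most annotated mRNAs, 7, and in this plant some of its splice forms are known to resist destruction. Only gene totals were measured, so splice forms were not analysed here. JAZ10 overlaps AT5G02045 and JAZ12 overlaps AT5G03235, both on the other strand and both listed at 0 FPKM in all 48 libraries. JAZ12 also overlaps AT5G20910 on the other strand, which lay between 7.95 and 33.0 FPKM. Whether strand was used in the quantification is not given in the sources used here, so reads of JAZ12 and AT5G20910 cannot be told apart. The same holds for how reads shared by similar JAZ genes were assigned.

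Levels per length spread widely over the family. JAZ12 (median 74.6 FPKM over 48 libraries) and JAZ9 (56.4 FPKM) were the most abundant. JAZ2 (30 FPKM), JAZ1 (20.6 FPKM), JAZ6 (19.1 FPKM) and JAZ3 (11.3 FPKM) came next. JAZ10 (3.33 FPKM), JAZ5 (2.02 FPKM), JAZ7 (1.43 FPKM) and JAZ8 (0.118 FPKM) were low. The ranges of JAZ12 (61.7 to 96.8 FPKM) and JAZ9 (25.1 to 138 FPKM) overlapped, as did those of JAZ1 and JAZ6, and of JAZ5, JAZ7 and JAZ10. JAZ9 and JAZ12 together made up between 51.8% and 72.6% of the summed FPKM of the 10 (median 60%). That sum ranged from 170 to 335 FPKM, with a median of 226 FPKM. The share of JAZ1 in it was between 3.33% and 18.8%, and that of JAZ9 between 14.8% and 42.7%.

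**Figure D2:**
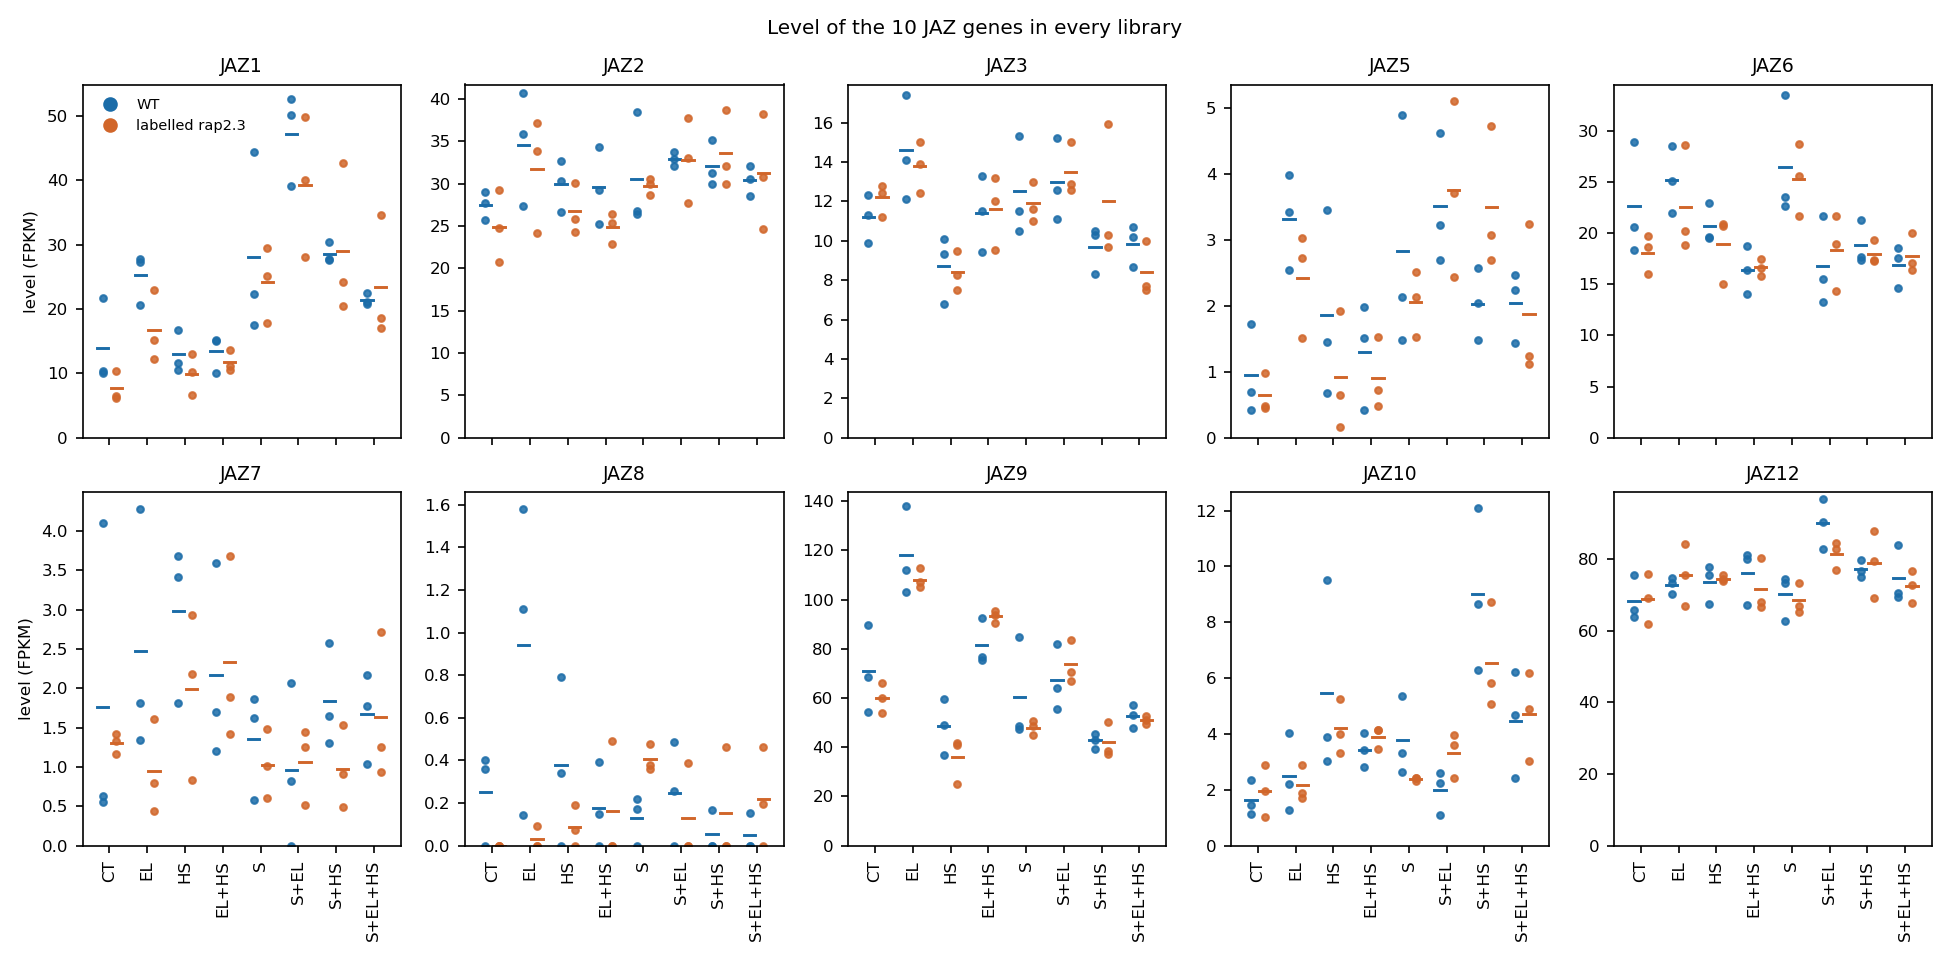
Level in FPKM (vertical axis, linear, from 0, each panel with its own scale) of the 10 JAZ genes in every library, by treatment. Points are libraries, bars are means of 3, blue is WT and orange is labelled rap2.3. JAZ1 is highest under S+EL (47.3 FPKM in WT), JAZ9 under EL (118 FPKM) and JAZ10 under S+HS (9.03 FPKM).

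The next comparison asked which JAZ genes each stress changed in WT. JAZ1 and JAZ5 rose under light with and without salt, JAZ1 also under salt and under S+HS, JAZ10 rose in 3 of the 4 treatments with heat, JAZ9 rose under EL and fell under S+HS, and JAZ12 rose under S+EL. JAZ8 missed the filter on low values (at least 1 FPKM in at least 3 libraries of the fit), which left 9 of 10 members tested. An adjusted p under 0.05 from limma on log2(FPKM + 1) was called. Over the 7 stresses there were 12 calls in 63 tests, 11 higher and 1 lower, in 5 members. Only those of JAZ1 and JAZ12 under S+EL and of JAZ1 and JAZ10 under S+HS passed in every alternative fit described below.

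Under EL 3 members were called in WT, all higher, where 10% of all 20744 genes tested were called higher and 7.7% lower. Under HS 1 member was higher, against 15% of genes higher and 15.7% lower. EL+HS gave 0 calls with limma, 2 members having an unadjusted p under 0.05, while 12% of genes were higher and 19.4% lower. Under S 1 member was higher (13.6% of genes higher, 5.17% lower). S+EL gave 3 higher members (23.2% of genes higher, 12.8% lower). S+HS gave 2 higher members and 1 lower (26% of genes higher, 18.9% lower). Under S+EL+HS 1 member was higher (23.6% of genes higher, 16.3% lower). Under HS, EL+HS, S, S+HS and S+EL+HS the share of the 9 members called higher was no larger than that of all genes.

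The libraries labelled rap2.3 gave 21 calls in 63 tests, 17 higher and 4 lower, in 7 members. Of 20592 genes tested, 7.61% were higher and 6.67% lower under EL, where 3 members were higher. HS raised 1 member and lowered 2 (15.7% of genes higher, 14.2% lower). EL+HS raised 2 members (11.1% of genes higher, 30.8% lower), and S raised 3 (21% higher, 5.22% lower). S+EL raised 2 members (23.2% higher, 11.6% lower). S+HS raised 4 members and lowered 1 (27.2% higher, 15.7% lower). S+EL+HS raised 2 and lowered 1 (22.5% higher, 20.2% lower). Under HS, S+EL and S+EL+HS the share of members called higher was again no larger than that of all genes. All stresses of a genotype label share its 3 CT libraries.

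**Figure D3:**
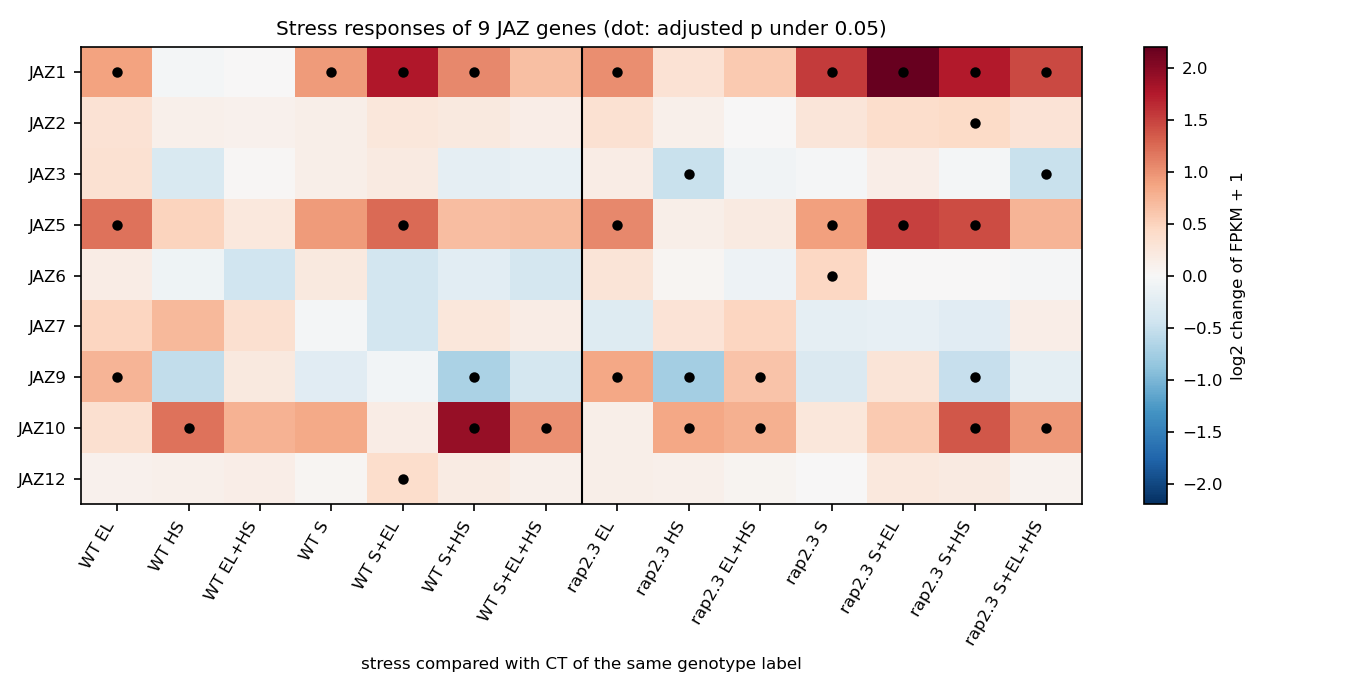
Log2 change of FPKM + 1 from CT (colour, red higher, blue lower) for 9 JAZ genes (rows) under 7 stresses in WT and in the libraries labelled rap2.3 (columns). Black dots mark an adjusted p under 0.05. The JAZ1 row is red under every salt treatment, up to 2.2 under S+EL in the libraries labelled rap2.3, and the JAZ10 row is red under every heat treatment.

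JAZ1, a direct MYC2 target whose protein binds MYC2 and COI1, had the largest average salt effect of the 9 tested members on the log2(FPKM + 1) scale with both genotype labels. In ratios of mean FPKM the low JAZ5 was above JAZ1 for S against CT, at 2.99 and 2.0 in WT. In WT JAZ1 was at 21.7, 10.4 and 10.1 FPKM under CT and at 52.6, 50.2 and 39.1 FPKM under S+EL. The 3 libraries of S+EL all stood above those of CT. The log2 change was 1.76 ± 0.28 (SE), with an adjusted p of 5.49e-05. Under S alone JAZ1 was at 44.4, 22.4 and 17.6 FPKM, and these overlapped CT, where replicate 1 was the highest. The log2 change of 0.93 ± 0.28 (adjusted p = 0.0236) was lost without S replicate 1 and without CT replicate 2 or 3, and in a fit of the compared libraries alone. The adjusted p over the alternatives was between 0.00405 and 0.178. Under S+HS the level was 27.8, 30.5 and 27.6 FPKM, all above CT (log2 change 1.06 ± 0.28, adjusted p = 0.00412).

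Light alone raised JAZ1 as well. Under EL the level was 27.8, 20.6 and 27.4 FPKM in WT, overlapping CT (log2 change 0.88 ± 0.28, adjusted p = 0.0339). This call was lost without EL replicate 1 or 3, without CT replicate 2 or 3, without the filter on low values and in a fit of the compared libraries, with an adjusted p between 0.000239 and 0.145. Under HS and EL+HS the WT means were 13 ± 3.25 and 13.5 ± 2.94 FPKM (SD, n = 3), against 14 ± 6.60 FPKM under CT. With all 3 factors JAZ1 was at 21.1, 22.5 and 20.8 FPKM, below every S+HS library (ratio of means 0.75). With the rap2.3 label that ratio was 0.804, and the libraries overlapped. Against CT the WT log2 change of 0.66 (adjusted p = 0.065) was not called. It was called with the 3 WT replicate 1 libraries of CT, HS and S left out, without CT replicate 1 alone, and with the replicate block.

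JAZ1 in the libraries labelled rap2.3 was at 6.54, 6.23 and 10.4 FPKM under CT. It was at 29.5, 25.2 and 17.9 FPKM under S and at 49.8, 40.0 and 28.1 FPKM under S+EL. Neither group overlapped CT, and the log2 changes were 1.53 ± 0.31 (adjusted p = 0.00128) and 2.2 ± 0.31 (adjusted p = 1.93e-05). S+HS and S+EL+HS gave 1.75 (adjusted p = 0.000164) and 1.45 (adjusted p = 0.001). EL gave 22.9, 12.3 and 15.2 FPKM, all above CT, with a log2 change of 1.02 ± 0.31 (adjusted p = 0.0349). The EL call was lost without CT replicate 1 or 2, without EL replicate 1 or 3, without the filter and in a fit of the compared libraries (adjusted p up to 0.123). Comparing each salt group with its partner without salt, JAZ1 was fully above in 3 of 4 backgrounds in WT and in 4 of 4 in the libraries labelled rap2.3. The ratio of means ran from 1.59 to 2.21 in WT and, with the rap2.3 label, from 1.99 to 3.14.

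JAZ2, the close relative of JAZ1, changed little. Its WT group means ran from 27.5 ± 1.66 FPKM under CT to 34.6 ± 6.72 FPKM under EL (SD, n = 3). In WT 0 of 7 stresses were called with limma, with log2 changes between 0.09 and 0.31. Under S+HS in the libraries labelled rap2.3 it was at 29.9, 32.1 and 38.7 FPKM against 24.8, 20.7 and 29.3 FPKM under CT. The groups did not overlap, and the log2 change of 0.42 ± 0.17 had an adjusted p of 0.0499. That call was lost with a pseudocount of 0.1, without the filter, after rescaling, with the replicate block, and without CT replicate 1 or 2 or S+HS replicate 2 or 3 (adjusted p up to 0.223).

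JAZ5, a low member of the MYC2-responsive kind, rose under EL and S+EL with both genotype labels. WT levels were 1.72, 0.702 and 0.423 FPKM under CT, 3.43, 2.55 and 3.99 FPKM under EL, and 4.62, 3.23 and 2.69 FPKM under S+EL. Both stressed groups stood fully above CT. The log2 changes were 1.19 ± 0.36 (adjusted p = 0.0256) and 1.24 ± 0.36 (adjusted p = 0.00996). The EL call was lost without EL replicate 1 or 3 or CT replicate 2 or 3 (adjusted p up to 0.111), and the S+EL call without CT replicate 3 (0.0524). In the libraries labelled rap2.3 JAZ5 was at 0.485, 0.455 and 0.986 FPKM under CT. It was at 5.11, 3.71 and 2.44 FPKM under S+EL and at 3.08, 2.70 and 4.73 FPKM under S+HS.

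Neither of these last groups overlapped CT, and JAZ5 rose by 1.51 ± 0.33 (adjusted p = 0.00133) and 1.44 ± 0.33 (adjusted p = 0.00152) on the log2 scale. EL raised JAZ5 in the libraries labelled rap2.3 by 1.05 ± 0.33 (adjusted p = 0.0385). This was lost without CT replicate 1 or 2, without EL replicate 1 or 3, without the filter and in a fit of the compared libraries. The rise under S, 0.90 ± 0.33 (adjusted p = 0.0497), was lost without the filter, after rescaling, with the replicate block, without CT replicate 1 or 2 and without any of the S libraries. At so low a level, the log2(FPKM + 1) scale understates fold changes. Under S in WT JAZ5 was at 4.90, 2.13 and 1.49 FPKM, which overlapped CT, and the log2 change of 0.93 ± 0.36 did not pass (adjusted p = 0.0761). It passed with the replicate block, without CT replicate 1 and without S replicate 3, and the adjusted p over the alternatives was between 0.0383 and 0.355. S+HS (0.68, adjusted p = 0.133) and S+EL+HS (0.69, adjusted p = 0.136) passed in WT with the 3 replicate 1 libraries of CT, HS and S left out (0.0176 and 0.0196). The mean of JAZ5 was higher with salt than without in 8 of 8 pairs of groups.

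JAZ6 was highest under S. In the libraries labelled rap2.3 it was at 18.6, 16 and 19.7 FPKM under CT and at 28.7, 25.6 and 21.7 FPKM under S. The groups did not overlap, and the log2 change was 0.46 ± 0.16 (adjusted p = 0.0432). It was lost without the filter, after rescaling, with the replicate block, and without CT replicate 1 or 2 or S replicate 1 or 2 (adjusted p up to 0.188). In WT JAZ6 was at 28.9, 18.3 and 20.6 FPKM under CT and at 33.5, 23.5 and 22.6 FPKM under S, which overlap. No stress was called for it in WT with limma, while under EL+HS, S+EL and S+EL+HS it was called lower with the replicate block. Under S+EL and S+EL+HS it was also called lower after rescaling. Without CT replicate 2 it was called lower under EL+HS and S+EL, and without S+EL replicate 1 under S+EL.

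JAZ10, which in Arabidopsis restrains jasmonate responses after they start, was the only member called higher for average heat. WT levels were 2.35, 1.44 and 1.12 FPKM under CT and 6.28, 12.1 and 8.66 FPKM under S+HS. All S+HS libraries stood above CT, and the log2 change was 1.91 ± 0.36 (adjusted p = 0.000244). Under HS alone JAZ10 was at 9.51, 3.89 and 3.05 FPKM, again above CT in all libraries. The log2 change of 1.2 ± 0.36 (adjusted p = 0.0161) was lost without HS replicate 1, without CT replicate 3, and with the 3 WT replicate 1 libraries of CT, HS and S left out, with an adjusted p up to 0.112. Under S+EL+HS it was at 4.69, 6.22 and 2.44 FPKM (log2 change 1.01 ± 0.36, adjusted p = 0.0322), above all CT libraries. This call was lost without the filter, after rescaling, and without CT replicate 2 or 3 or S+EL+HS replicate 1 or 2 (adjusted p up to 0.141).

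Under EL+HS in WT JAZ10 was at 3.44, 4.02 and 2.80 FPKM, also above CT in all libraries, with a log2 change of 0.76 that did not pass (adjusted p = 0.117) but did in a fit of the compared libraries (0.0436). In the libraries labelled rap2.3 all 4 treatments with heat passed. Levels there were 1.01, 1.95 and 2.90 FPKM under CT, 5.27, 4.01 and 3.33 FPKM under HS and 5.08, 8.73 and 5.82 FPKM under S+HS. No heat library overlapped CT. The log2 changes were 0.85 ± 0.25 under HS (adjusted p = 0.0123), 0.78 under EL+HS (0.0155), 1.37 under S+HS (0.000158) and 0.96 under S+EL+HS (0.00384). The HS call was lost without CT replicate 1 or HS replicate 1 and in a fit of the compared libraries, and the EL+HS call without CT replicate 1. The mean of JAZ10 was higher with heat than without in 8 of 8 pairs of groups, by a factor of 1.36 to 3.35 in WT and 1.41 to 2.75 in the libraries labelled rap2.3. It was also higher with salt in 7 of 8 pairs, and lower with light in 5 of 8. Salt alone in WT gave 5.35, 2.64 and 3.32 FPKM, above every CT library (ratio of means 2.3), which was not called.

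JAZ9, an abundant member of the group that also holds JAZ3 and JAZ4, moved in opposite ways with light and heat. WT levels were 89.8, 68.7 and 54.2 FPKM under CT and 103, 112 and 138 FPKM under EL. The EL libraries all stood above CT (log2 change 0.74 ± 0.21, adjusted p = 0.02). This call was lost without CT replicate 2 or 3 or EL replicate 3 and in a fit of the compared libraries, with an adjusted p up to 0.112. Under S+HS JAZ9 was at 39.5, 45.6 and 43.1 FPKM, below every CT library. Its log2 change was -0.69 ± 0.21 (adjusted p = 0.0127), which was lost without CT replicate 1 (0.0841).

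In the libraries labelled rap2.3 JAZ9 was at 59.9, 66.0 and 54.1 FPKM under CT, 107, 113 and 105 FPKM under EL and 41.1, 41.9 and 25.1 FPKM under HS. Neither stress overlapped CT. JAZ9 rose by 0.85 ± 0.15 under EL (adjusted p = 0.00053) and changed by -0.75 ± 0.15 under HS (adjusted p = 0.000613) on the log2 scale. With both stresses at once it was at 95.5, 93.7 and 90.6 FPKM, above CT (log2 change 0.63 ± 0.15, adjusted p = 0.002). S+HS gave -0.51 ± 0.15 (adjusted p = 0.00801). Under HS in WT, 59.8, 49.1 and 36.7 FPKM overlapped CT, and the log2 change of -0.54 had an adjusted p of 0.0638. It passed without HS replicate 1 and without CT replicate 3. The mean of JAZ9 was higher with light in 8 of 8 pairs of groups and lower with heat in 8 of 8.

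JAZ3, a relative of JAZ9, was lowest under HS. In the libraries labelled rap2.3 it was at 11.2, 12.8 and 12.4 FPKM under CT, 8.25, 9.49 and 7.49 FPKM under HS and 7.48, 10 and 7.71 FPKM under S+EL+HS. Both stressed groups lay below CT, each with a log2 change of -0.49 (adjusted p = 0.0244 and 0.0168). The HS call was lost without CT replicate 2 or 3 or HS replicate 1 or 3, and the other without CT replicate 2 or S+EL+HS replicate 1 or 3 (adjusted p up to 0.0961 and 0.0693). In WT the means were 11.2 ± 1.21 FPKM under CT and 8.74 ± 1.71 FPKM under HS (SD, n = 3), and no stress passed with limma. Log2 changes in WT were between -0.33 and 0.34.

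JAZ12, the most abundant member by its median, moved over a narrow range. WT group means ran from 68.3 ± 6.22 FPKM under CT to 90 ± 7.01 FPKM under S+EL (SD, n = 3). The libraries were at 75.4, 65.6 and 63.9 FPKM under CT and at 90.3, 96.8 and 82.8 FPKM under S+EL. They did not overlap, and the log2 change of 0.39 ± 0.10 (adjusted p = 0.00407) passed under every alternative run. Under the rap2.3 label S+EL was also the highest group, at 81.3 ± 3.92 FPKM, with a log2 change of 0.24 that did not pass (adjusted p = 0.0809).

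JAZ7 and JAZ8 encode repressors with a motif of their own for recruiting co-repressors, and both were close to the lower limit of the data. JAZ7 lay between 0 and 4.28 FPKM. Its WT libraries under CT, at 4.10, 0.627 and 0.559 FPKM, spanned most of that range. None of its 14 stress comparisons passed with limma, the lowest adjusted p being 0.24 for JAZ7 under HS in WT, which passed without CT replicate 1 (0.0341). JAZ8 was listed at 0 in 22 of 48 libraries and reached 1 FPKM in 2, both of WT under EL, at 1.58 and 1.11 FPKM. The remaining WT library under EL was at 0.145 FPKM, and no test was made. Every JAZ8 value labelled rap2.3 was under 0.5 FPKM, the highest being 0.491 FPKM.

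Averaging each factor over its 4 backgrounds uses all 24 libraries of a genotype label and asked what light, heat and salt did in general. Light raised JAZ9. Heat lowered JAZ3, JAZ6 and JAZ9 and raised JAZ10. Salt raised JAZ1 and lowered JAZ9. These 7 passed with both genotype labels.

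For light, 1 member was higher in WT (13.3% of genes higher, 14.5% lower) and 2 with the rap2.3 label (12.3% higher, 31.5% lower). JAZ9 rose by 0.50 ± 0.11 in WT (adjusted p = 0.00159) and 0.78 ± 0.07 in the libraries labelled rap2.3 (1.15e-07) on the log2 scale. JAZ1 rose by 0.41 ± 0.16 in the libraries labelled rap2.3 (0.0401). That call was lost without the filter, with the replicate block and in 11 of 24 fits with a library left out: replicates 1 and 2 of CT, S+EL and S+HS, replicate 1 of EL and HS, replicate 2 of S+EL+HS, and replicate 3 of EL+HS and S (adjusted p up to 0.0769). JAZ1 in WT had a similar value, 0.34 ± 0.14 (adjusted p = 0.0763). It passed with the 3 WT replicate 1 libraries left out together or any 1 of them left out, after rescaling, and with the replicate block. In the other direction, JAZ6 had -0.23 (adjusted p = 0.0651) and JAZ10 -0.41 (0.0967) in WT. JAZ6 passed as lower with the replicate block and in 4 of 24 fits with a library left out, and JAZ10 in 1. With the rap2.3 label their values were -0.09 and 0. With the 3 WT libraries left out, JAZ3 (0.27, 0.0287), JAZ5 (0.56, 0.00819) and JAZ12 (0.15) passed for light in WT as well. All 3 libraries were without excess light and were picked for high JAZ levels. Leaving them out therefore raises every light value, and these gains are no support for a rise.

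For heat, WT had 1 higher and 4 lower members (18.8% of genes higher, 28.5% lower), and the libraries labelled rap2.3 had 1 higher and 3 lower (16.2% higher, 34.1% lower). JAZ10 rose by 0.88 ± 0.18 (adjusted p = 0.000496) and 0.75 ± 0.12 (4.49e-05). JAZ7 had 0.37 in WT (0.191), which passed without CT replicate 1 (0.0429). With the rap2.3 label it had 0.33 (0.0933), which passed without HS replicate 3 (0.0318). JAZ5 went the other way in WT, at -0.32 (0.15), which passed without HS replicate 1 (0.0489). JAZ9 changed by -0.45 ± 0.11 (0.00161) and -0.42 ± 0.07 (9.06e-05), and JAZ3 by -0.33 ± 0.09 (0.00318) and -0.34 ± 0.08 (0.00125). JAZ6 changed by -0.28 ± 0.09 in WT (0.0165), which missed the threshold with the 3 WT libraries left out (0.0529). With the rap2.3 label its -0.21 ± 0.08 (0.04) was lost without the filter, after rescaling and in 14 of 24 fits with a library left out: every replicate 1, replicate 2 of EL+HS, S, S+EL and S+HS, and replicate 3 of CT and S+EL+HS (adjusted p up to 0.165). JAZ1 was lower with heat in WT (-0.47 ± 0.14, 0.00897). The EL+HS libraries lay below those of EL, and S+EL+HS below S+EL, while HS overlapped CT and S+HS overlapped S. The test of that difference for EL+HS, the departure of JAZ1 from the sum of light and heat (-0.82 ± 0.39, adjusted p = 0.201), did not pass, and it passed with the 3 WT libraries left out (0.0218).

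For salt, WT had 1 higher and 1 lower member (33.4% of genes higher, 12.5% lower), and the libraries labelled rap2.3 had 4 higher and 1 lower (41.1% higher, 12.6% lower). JAZ1 rose by 0.89 ± 0.14 in WT (adjusted p = 3.12e-05) and 1.26 ± 0.16 in the libraries labelled rap2.3 (1.66e-06). JAZ9 changed by -0.46 ± 0.11 (0.00164) and -0.37 ± 0.07 (0.000285). JAZ5 rose in the libraries labelled rap2.3 by 0.81 ± 0.16 (0.000398) and had 0.41 ± 0.18 in WT (0.0694), which passed with the 3 WT libraries left out, with the replicate block, and without replicate 1 of CT, HS or EL+HS or replicate 3 of S. With 4 of 9 members higher, the share labelled rap2.3 was near that of all genes. JAZ10 rose by 0.35 ± 0.12 in the libraries labelled rap2.3 (0.0218), which was lost after rescaling (0.202), and had 0.40 in WT (0.0759), which passed with the 3 WT libraries left out. JAZ2 rose there by 0.23 ± 0.08 (0.0261), which was lost after rescaling and without replicate 2 of CT, EL, S+EL or S+EL+HS or replicate 3 of S+HS. After rescaling JAZ2 was at 0.05, with an adjusted p of 0.61.

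All 7 root markers also rose with salt, with a median of 1.23 on the log2 scale in WT and 1.58 in the libraries labelled rap2.3, and 3 of 5 shoot markers fell in WT and 4 of 5 with the rap2.3 label, where 1 rose. With heat, 4 of 5 shoot markers fell with both labels (medians -0.25 and -0.28), and of the root markers 2 rose and 2 fell in WT and 1 rose and 2 fell with the rap2.3 label. With light, 3 of 7 root markers rose in WT (median 0.35), while 1 rose and 1 fell with the rap2.3 label, and 1 shoot marker rose and 2 fell with both. Under EL alone 4 of 7 root markers rose in WT (median 1.04) and 1 with the rap2.3 label (0.08). The part of these markers in the light, heat and salt results of the JAZ genes was not tested. With the 3 WT libraries left out together, the WT calls of JAZ1 and JAZ9 for salt, of JAZ1, JAZ3, JAZ9 and JAZ10 for heat and of JAZ9 for light all held. In that fit the light value of JAZ9 could only rise.

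**Figure D4:**
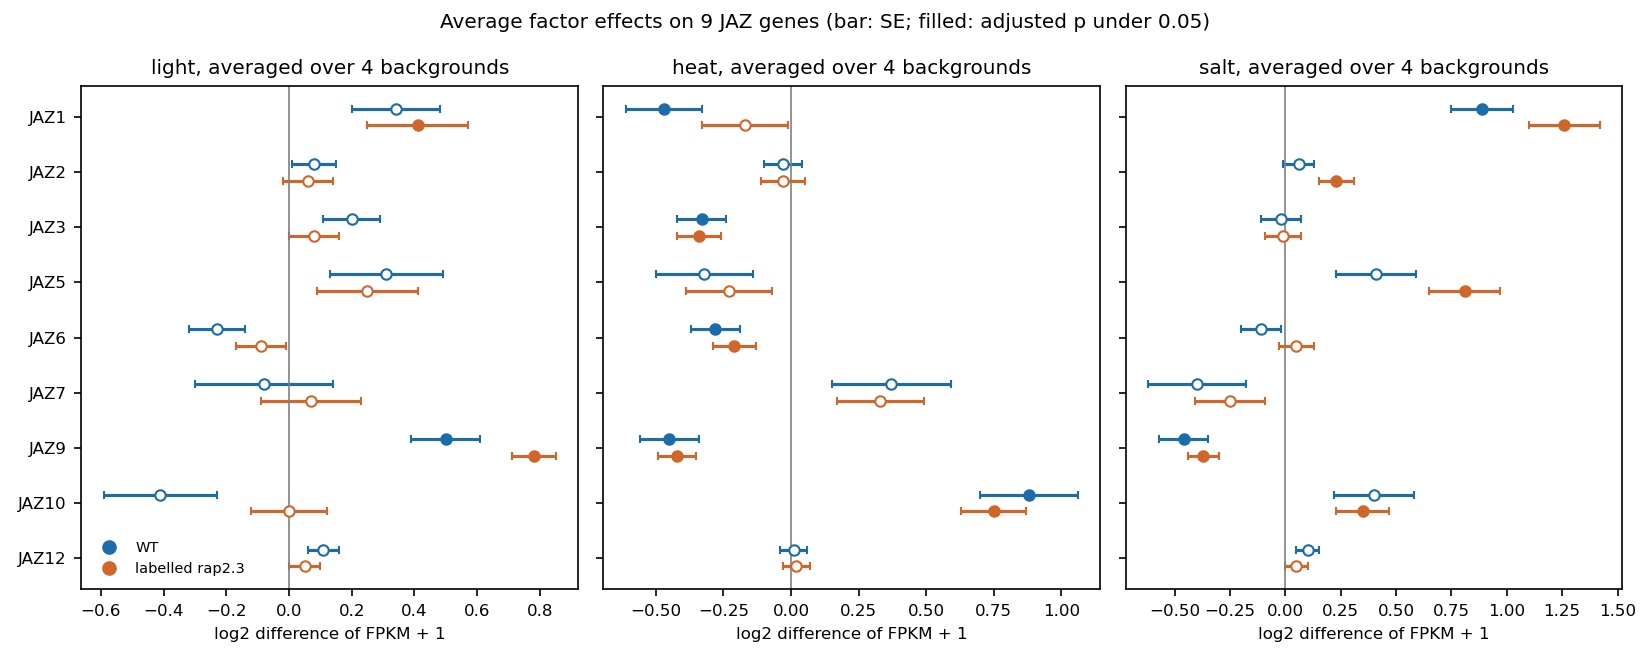
Average effect of light, heat and salt on 9 JAZ genes as log2 difference of FPKM + 1 (horizontal axis), with SE bars, in WT (blue) and in the libraries labelled rap2.3 (orange). Filled points have an adjusted p under 0.05. JAZ9 lies right of 0 for light (0.50 in WT) and left for heat and salt, and JAZ1 lies farthest right for salt (1.26 in the libraries labelled rap2.3).

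The scaling of the libraries moved the median of all genes by over 0.1 in several comparisons. Rescaling by size factors took the average salt effect of all genes from 0.11 to 0 in WT, and from 0.15 to -0.01 with the rap2.3 label. The median for S against CT was 0.10 before and -0.01 after rescaling in WT, and 0.18 and 0 with the rap2.3 label. That label also gave -0.22 and -0.01 for EL+HS, 0.13 and 0.01 for S+HS, -0.12 and 0 for average light and -0.20 and 0 for the departure of EL+HS. Between the labels at EL+HS the median was -0.14 before and 0.02 after, and for the interaction at EL+HS -0.10 and 0.03. The salt effect on JAZ1 was 0.77 in WT and 1.08 in the libraries labelled rap2.3 after rescaling, and that on JAZ9 was -0.58 and -0.56. JAZ12 was the member that turned, from 0.05 (adjusted p = 0.445) to -0.14 (0.0435) for average salt in the libraries labelled rap2.3. Average salt also passed as lower after rescaling for JAZ6 in WT, from -0.11 to -0.23 (0.0443). JAZ3 did so with the rap2.3 label, from -0.01 to -0.18 (0.0481).

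Among all called genes the share that was higher depended on this scaling as well. In WT the share before and after rescaling was 38.1% and 51.8% for EL+HS, 72.4% and 54.3% for S, 64.5% and 53.7% for S+EL and 72.8% and 50.1% for average salt. With the rap2.3 label it was 26.4% and 52.5% for EL+HS, 80.1% and 53.3% for S, 66.7% and 54.5% for S+EL and 63.4% and 50.7% for S+HS. The average effects there had 28.1% and 55.4% for light, 32.2% and 46.5% for heat and 76.5% and 49.2% for salt.

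Whether a pair of stresses differed from the sum of its parts was asked for EL+HS, S+EL and S+HS. With limma 0 of 54 member tests passed, and 8 had an unadjusted p under 0.05. These were JAZ5 for EL+HS and JAZ6 for S+EL with both labels, and others with the rap2.3 label only. The latter were JAZ9 for EL+HS, and JAZ3, JAZ6 and JAZ9 for S+HS. The lowest adjusted p, 0.0771, was that of JAZ5 under EL+HS in WT. JAZ5 was at 1.98, 0.424 and 1.51 FPKM under EL+HS, where EL alone gave 3.43, 2.55 and 3.99 FPKM, and the departure was -1.45 ± 0.51. It passed with the replicate block and without HS replicate 2. JAZ1 had -0.82 ± 0.39 there (adjusted p = 0.201), which passed with the 3 WT replicate 1 libraries left out. JAZ9 had 0.54 ± 0.21 in the libraries labelled rap2.3 (0.0854), which passed after rescaling and without HS replicate 1, and JAZ5 had -0.98 ± 0.47 (0.165), which passed without HS replicate 1.

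Over all genes, 9.28% departed for EL+HS in WT, 0.246% for S+EL and 0.231% for S+HS. Under the rap2.3 label the shares were 14.8%, 0.00486% and 0.0437%. Of the EL+HS departures called, 36.1% were above 0 in WT and 47.7% after rescaling, and 20.6% and 52.4% in the libraries labelled rap2.3.

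Between the genotype labels 0 members differed at any treatment with limma, in 72 tests of which 2 had an unadjusted p under 0.05. The lowest adjusted p was 0.398. The background was 0.0657% of 21322 genes under CT, 0.155% under EL, 0.0188% under HS, 7.39% under EL+HS, 0.0234% under S, 0.0234% under S+EL, 0.0281% under S+HS and 0.061% under S+EL+HS. Of the genes called, the share higher in the libraries labelled rap2.3 went from 5.7% to 46.7% after rescaling under EL+HS and from 30.8% to 45.5% under S+EL+HS. Under EL, where same-numbered libraries of the labels deviated together, the replicate block within the treatment called 0 members as well.

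JAZ1 was at 21.7, 10.4 and 10.1 FPKM under CT in WT and at 6.54, 6.23 and 10.4 FPKM with the rap2.3 label, and these overlap. Averaged over the 8 treatments JAZ1 was 0.28 ± 0.11 lower on the log2 scale in the libraries labelled rap2.3 (log2 difference -0.28, adjusted p = 0.092). This was the lowest adjusted p of the 9 tested members, 1 of which had an unadjusted p under 0.05. It passed with a replicate block within each treatment and when WT S replicate 3, rap2.3 S+EL+HS replicate 2 or rap2.3 S+HS replicate 3 was left out (adjusted p over the alternatives 0.0423 to 0.158). The background was 10.3% of genes, of which 8.4% were higher, or 37% after rescaling. Of the root markers, 6 of 7 were lower in the libraries labelled rap2.3 (median -0.36), and their part in this value was not tested.

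Whether a stress acted differently with the labels was tested as an interaction. With limma 0 of 63 member tests passed, 0 had an unadjusted p under 0.05, and the lowest adjusted p was 0.685. The estimates ranged from -0.76 for JAZ7 under EL to 0.79 for JAZ1 under S+EL+HS. Over all genes the share called was 0% for EL, 0.00469% for HS, 0% for EL+HS, 0% for S, 0.00469% for S+EL, 0% for S+HS and 0% for S+EL+HS. A stress that passed with 1 label and not with the other, as for JAZ3 under HS, is therefore not shown to differ between them.

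The rest of the pathway was described through 6 lists of genes, whose counts are to be read against the shares of all genes called. The alternative fits were read for the JAZ members only, so no call of a list gene was checked after rescaling. In WT these were 13.3% higher and 14.5% lower for average light, 18.8% and 28.5% for heat and 33.4% and 12.5% for salt. The rap2.3 label had 12.3% and 31.5% for light, 16.2% and 34.1% for heat and 41.1% and 12.6% for salt. Most synthesis genes moved with salt and against heat. Of 13 tested in WT, 10 were higher and 0 lower with salt (median 0.51, all genes 0.11), and 1 was higher and 9 lower with heat (median -0.43, all genes -0.06). With the rap2.3 label the counts were 11 higher with salt (median 0.72, all genes 0.15) and 9 lower with heat (median -0.34, all genes -0.10). LOX2, the lipoxygenase that starts jasmonate synthesis in chloroplasts, was at 100, 79.1 and 55.9 FPKM under CT and 721, 650 and 509 FPKM under S in WT. The groups did not overlap, and the average salt effect was 2.29 ± 0.11 (adjusted p = 9.76e-12). AOC2, an allene oxide cyclase, rose with salt by 1.58 ± 0.11 (1.89e-09). JAR1, which makes the active conjugate, rose with salt by 0.39 (3.31e-05) and with light by 0.46 (1.07e-05), and changed by -0.43 (9.61e-06) with heat.

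Among breakdown genes, 8 of 10 were tested. In WT 2 were higher with light, 1 with heat and 3 with salt, and 1 was lower with salt. Under the rap2.3 label 5, 4 and 5 were higher and 0 lower. With salt, 3 of 8 in WT is near the 33.4% of all genes. CYP94B3, a cytochrome P450 that oxidizes the active conjugate, was at 1.90, 0.923 and 1.41 FPKM under CT and 6.52, 2.82 and 6.05 FPKM under HS in WT. The groups did not overlap, and the average heat effect was 0.83 ± 0.13 (adjusted p = 3.81e-05), in the direction of JAZ10. Its salt effect was 0.74 ± 0.13 (0.000139).

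Of the 6 receptor and co-repressor genes, 1 was higher and 2 were lower with light in WT, 1 was higher with heat and 3 with salt. With the rap2.3 label 0 were higher and 1 lower with light, 2 higher and 2 lower with heat, and 2 higher with salt. COI1 lay between 16.5 and 24.6 FPKM in all 48 libraries, and none of its 6 average effects passed with limma. NINJA, the adaptor, rose with salt by 0.19 in WT (adjusted p = 0.00349) and changed by -0.19 with light (0.00692). The median salt effect of all genes in WT was 0.11 before and 0 after rescaling, and NINJA was not tested after rescaling. Of the JAZ-bound transcription factors, 7 of 9 were tested and 4 were higher with salt in either genotype label, while light gave 0 calls in WT with limma, and 1 higher and 4 lower with the rap2.3 label. MYC2 was at 12, 6.67 and 7.88 FPKM under CT and 26.7, 13 and 12.3 FPKM under S in WT. All S libraries were above CT, with CT and S replicate 1 the highest of their groups, and the average salt effect was 0.67 ± 0.16 (0.00144). MYC2 overlaps AT1G32630, COI1 overlaps AT2G39930, and TIFY8, described below, overlaps AT4G32560, all on the other strand. Of the 56 genes of the 6 lists, 11 overlap another annotated gene.

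Response markers split with salt. In WT 4 of 9 tested were higher and 3 lower, and with the rap2.3 label 5 were higher and 3 lower, beside 33.4% and 41.1% of all genes higher and 12.5% and 12.6% lower. VSP2, a vegetative storage protein of the MYC2 branch, was at 39.0, 14.2 and 10 FPKM under CT and 199, 125 and 49.9 FPKM under S in WT. These did not overlap, and the average salt effect was 1.76 ± 0.25 (adjusted p = 1.35e-05). PDF1.2, a defensin of the branch shared with ethylene, was at 20.2, 14.2 and 1.44 FPKM under CT and at 0.617, 0.489 and 0 FPKM under S in WT, with no overlap. It changed by -3.38 ± 0.37 with salt in WT (4.73e-07) and -2.28 ± 0.37 in the libraries labelled rap2.3 (3.3e-05). With heat, VSP1 changed by -0.98 (0.0162) in WT, and 4 of 9 markers were lower and 0 higher.

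Of the other TIFY genes, relatives with the same domain, 5 of 6 were tested within a genotype label. In WT 3 were lower with light, 2 with heat and 3 with salt, and 0 were higher. With the rap2.3 label 3 were lower with light and 2 with heat, while with salt 1 was higher and 1 lower (median 0). For heat, 2 of 5 is near the 28.5% and 34.1% of all genes lower. TIFY8 fell with every factor. In WT it was at 44.2, 46.8 and 44.5 FPKM under CT, 20.7, 23.8 and 21.1 FPKM under EL and 20.1, 20.4 and 24.4 FPKM under HS. The groups were far apart, and the average effects were -0.42 for light (adjusted p = 2.7e-05), -0.61 for heat (8.56e-08) and -0.42 for salt (1.3e-05). JAZ11 was lower with heat, by -0.54 in WT (1.02e-05) and -0.62 in the libraries labelled rap2.3 (4.46e-05). JAZ4 had no average effect past the threshold with limma but was lower in the libraries labelled rap2.3 over all treatments (-0.43 ± 0.12, 0.0197). In that mean difference 5 of 13 synthesis genes were lower as well, among them LOX2 (-0.39, 0.00639) and AOC3 (-0.44, 0.00892). Of all genes 10.3% were called there, and 8.4% of those called were higher, or 37% after rescaling.

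**Figure D5:**
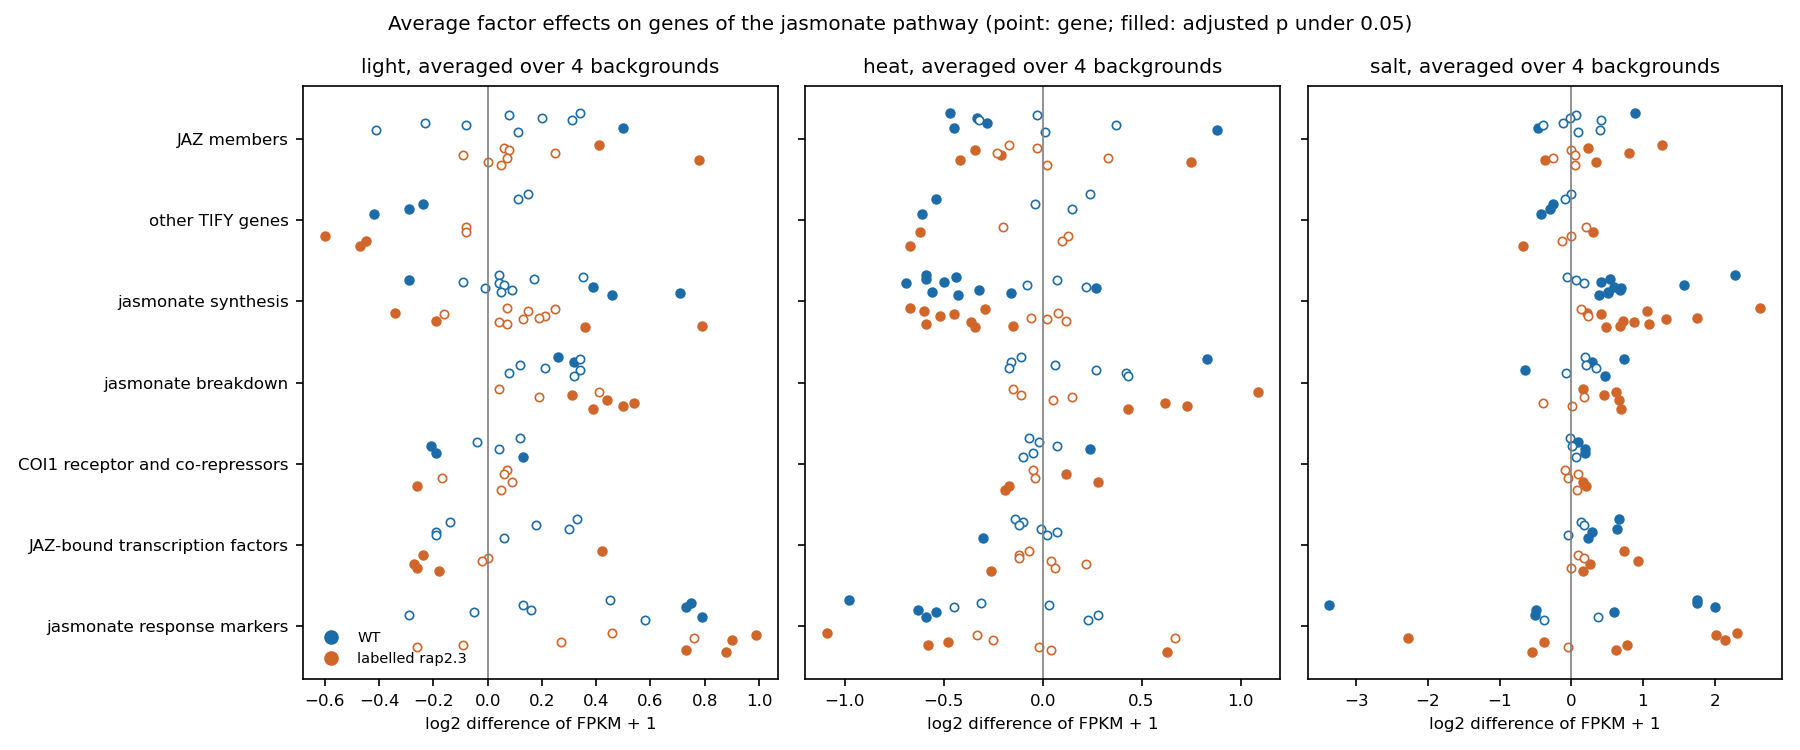
Average effects of light, heat and salt (log2 difference of FPKM + 1, horizontal axis) for each tested gene of 7 lists (rows) in WT (blue) and in the libraries labelled rap2.3 (orange). Filled points have an adjusted p under 0.05. The medians of the synthesis genes lie left of 0 for heat and right for salt (-0.43 and 0.51 in WT), and the leftmost point for salt is PDF1.2 at -3.38.

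The members followed different courses over the 16 group means. Pearson's r of log2(FPKM + 1) was 0.90 between JAZ1 and JAZ5 and 0.92 between JAZ2 and JAZ5, but 0.01 between JAZ1 and JAZ9 and 0.15 between JAZ1 and JAZ10. These values describe 16 means that share libraries with the tests above. Among 16186 other genes, those with the course most like JAZ1 were APS1 (r = 0.979), LOX1 (0.971), a lipoxygenase, and RNS1 (0.970), a ribonuclease. For JAZ5 they were AT5G24990 (0.913), APS1 (0.912) and VSP1 (0.912). JAZ9 was nearest to WNK4 (0.954), a protein kinase, BEL10 (0.940) and AT1G76570 (0.935). JAZ10 was nearest to AT5G42470 (0.931), AT2G31600 (0.929) and GAE1 (0.929). JAZ12 was nearest to AT5G45690 (0.897), AT1G50590 (0.890) and NCED3 (0.886), the latter an enzyme of abscisic acid synthesis. No gene came closer to JAZ6 than SUC1 (0.790).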

How the data were processed

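The labels' protocols describe whole seedlings, total RNA and paired-end sequencing on a NovaSeq instrument. The authors deposited 1 table of FPKM values per genotype, per the file headers. HISAT2, Cufflinks and TAIR10 are named, without versions or roles, in the submitters' processing notes, and other steps are not given in the sources used here. Rows of the 2 identifiers that occur more than once were summed. Depth is unknown, so no counting intervals are given. Of 32824 identifiers, 32539 were found in the RefSeq annotation of TAIR10.1, including all 10 members.

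Titles and treatment labels gave each library its group and replicate number. On the scale log2(FPKM + 1), limma 3.58.1 (R 4.3.3) fitted 1 mean per group with an intensity trend, over the 24 libraries of 1 genotype label, leaving 16 residual degrees of freedom, or over all 48, leaving 32. A gene was tested where 3 or more libraries of its fit reached 1 FPKM, which kept 20744 in WT, 20592 labelled rap2.3 and 21322 in all. Benjamini-Hochberg adjustment ran over all genes within each of 42 comparisons, and an adjusted p under 0.05 was called. SE is that of limma's residual spread. The fits were checked on simulated data. The members, lists and tests were chosen with earlier results of these data known. The genes named are the members, the lists' genes, RAP2.3 and, for each member, the 3 genes with the highest correlation over the group means among those reaching a group mean of 5 FPKM.

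Alternatives were a pseudocount of 0.1, no filter, rescaling by size factors, the replicate number as a block, only the compared libraries, and each library left out (96 fits). Only calls of the JAZ members were compared across them, not those of the list or marker genes. Leaving out WT CT, HS and S replicate 1 together was chosen after the values were seen. Replicate numbers were checked for pairing by correlating deviations from group means. For EL in both genotypes these were 0.52, 0.103 and 0.414, each above the limit of 0.1, so numbers were taken to pair libraries there. In no other comparison did all 3 pass. The plots come from matplotlib 3.10.9 under Python 3.11.15.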

Additional observations from a re-analysis of the deposited data

How the results depend on the processing

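Of 52 member calls in 42 comparisons, 30 passed under every alternative run. The counts of members called moved by over 1.5 times as follows, with the cause not tested. Without the filter on low values WT S+EL+HS went from 1 to 0, and with the rap2.3 label EL and S went from 3 to 1 and average light from 2 to 1. After rescaling by size factors average light had 3 members in place of 1 in WT and 5 in place of 2 with the rap2.3 label, where EL+HS went from 2 to 4 and the departure of EL+HS from 0 to 1. With the replicate block, whose numbers share no more than a number within a genotype label, WT EL+HS went from 0 to 1, WT S from 1 to 2, WT S+EL+HS and average light from 1 to 3, the WT departure of EL+HS from 0 to 1, rap2.3 S from 3 to 1 and rap2.3 average light from 2 to 1. The replicate block within each treatment took the mean genotype difference from 0 to 1 and changed no other genotype or interaction count. A fit of only the compared libraries took EL from 3 to 1 with both labels, WT EL+HS from 0 to 1 and WT S from 1 to 0. Leaving out WT CT, HS and S replicate 1 together took WT HS from 1 to 0, S+EL+HS from 1 to 3, average light from 1 to 5, average salt from 2 to 4 and the departure of EL+HS from 0 to 1. For S+EL+HS and average light, the choice of these libraries by itself raises the values. With 1 library left out, counts ranged in WT from 0 to 4 for EL, 1 to 2 for HS, 0 to 1 for EL+HS, 0 to 2 for S and for S+EL+HS, 1 to 3 for average light, 2 to 4 for average salt and 0 to 1 for the departure of EL+HS. In the libraries labelled rap2.3 they ranged from 1 to 3 for EL, HS and S, 1 to 2 for EL+HS and average light, 2 to 5 for S+EL and 0 to 2 for the departure of EL+HS, and the mean genotype difference ranged from 0 to 1. The value of JAZ12 for average salt in the libraries labelled rap2.3 turned from 0.05 to -0.14 after rescaling. The number of reads behind low values such as those of JAZ5, JAZ7, JAZ8 and JAZ10 is unknown, so absence cannot be told from low level.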
